A study of Bos taurus with 4 samples.

Results

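The mitochondrial respiratory chain and ATP synthase were represented by 21 of the 36373 UniGene clusters in the deposited tables of bovine back fat. A UniGene cluster is a group of transcript sequences of 1 gene, with 1 sequence standing for it. The 21 members were the clusters whose description in the authors' sequence file named NADH dehydrogenase (ubiquinone), ubiquinol-cytochrome c reductase, cytochrome c oxidase or the H+ transporting ATP synthase, with unnamed expressed sequence tags left out. By these descriptions, 5 members were complex I subunits, 1 was a paralog of the subunit NDUFA4, 2 belonged to complex III, 5 to complex IV and 2 to ATP synthase. The remaining 6 were assembly factors, which help to build the complexes and are not part of them.

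Subcutaneous adipose tissue came from Chinese Qinchuan cattle in 4 groups: fetuses (library ATFB), bulls (ATAB), heifers (ATAH) and steers (ATAS), which are castrated males. The fetuses were 200 to 250 days old and the adult cattle 18 to 24 months old by the labels, and the labels give no sex for the fetuses. Tissue of 5 animals per group was pooled before RNA extraction and sequenced as 1 library. Each group therefore had 1 library and no replicates, and every test between 2 libraries below compares those libraries, not the conditions. Poly(A) RNA was sequenced, and 15.3 M to 16.1 M uniquely matched reads were counted per library.

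The respiratory chain passes electrons from NADH and succinate to oxygen and pumps protons across the inner mitochondrial membrane. Complex I oxidizes NADH, complex III passes electrons from ubiquinol to cytochrome c, and complex IV, cytochrome c oxidase, reduces oxygen. ATP synthase uses the proton gradient to make ATP. White adipocytes hold few mitochondria and store triglyceride, whereas brown adipocytes hold many and release the gradient as heat through UCP1. Most subunits are encoded in the nucleus, some of them by several genes that are used in different tissues.

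Subunit 8 of complex IV is such a case here, because clusters of both isoforms were counted. COX8B (Bt.62953) is the heart and muscle isoform, and Bt.88403 (LOC783202) is described as similar to COX8A, the isoform of most tissues, and is called COX8A-like here. Their coding sequences in the authors' sequence file are printed to show how far the pair differs, with the start and stop codons in capitals.
COX8B: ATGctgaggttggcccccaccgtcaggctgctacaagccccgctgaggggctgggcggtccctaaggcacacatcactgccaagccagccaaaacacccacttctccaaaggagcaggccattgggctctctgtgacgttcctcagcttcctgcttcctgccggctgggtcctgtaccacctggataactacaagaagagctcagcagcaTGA
COX8A-like: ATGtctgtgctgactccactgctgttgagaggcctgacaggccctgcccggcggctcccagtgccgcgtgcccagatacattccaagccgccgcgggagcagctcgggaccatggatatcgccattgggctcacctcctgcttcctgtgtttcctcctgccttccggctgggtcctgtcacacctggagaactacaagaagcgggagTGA
The COX8B coding sequence has 213 bases and the COX8A-like one has 210. Over 203 aligned bases they were identical at 136, which is 67.0%, and the longest identical run was 15 bases. This run is shorter than the window of 90 bases used to look for sequence shared between clusters, and no such window was shared between the pair.

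Summed over the 21 members, 0.211% of the reads lay on these clusters in fetal fat, 0.245% in bulls, 0.196% in heifers and 0.154% in steers. The 95% Wilson intervals of these shares did not overlap, being 0.152 to 0.156% in ATAS and 0.194 to 0.199% in ATAH. Such intervals hold counting error alone, because PCR copies of 1 molecule cannot be recognised without molecular identifiers. A read was seen for all 21 members in ATFB and for 20 in each adult library. The exception was COX6B2, the testis isoform of subunit VIb, with 2 reads in ATFB and 0 in each adult library. A count of 0 allows up to 3 reads, which is 0.265 RPKM (reads per kilobase of sequence, scaled to the counted reads of the library) for COX6B2 in ATAB, so no fold was computed for it. Of the 567 windows of COX6B2, 344 were shared with an unnamed cluster of the same strand. Uniquely matched reads alone were counted, so the limit of 3 reads may not hold for COX6B2. The other 20 members had at least 100 reads over the 4 libraries.

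**Figure D1:**
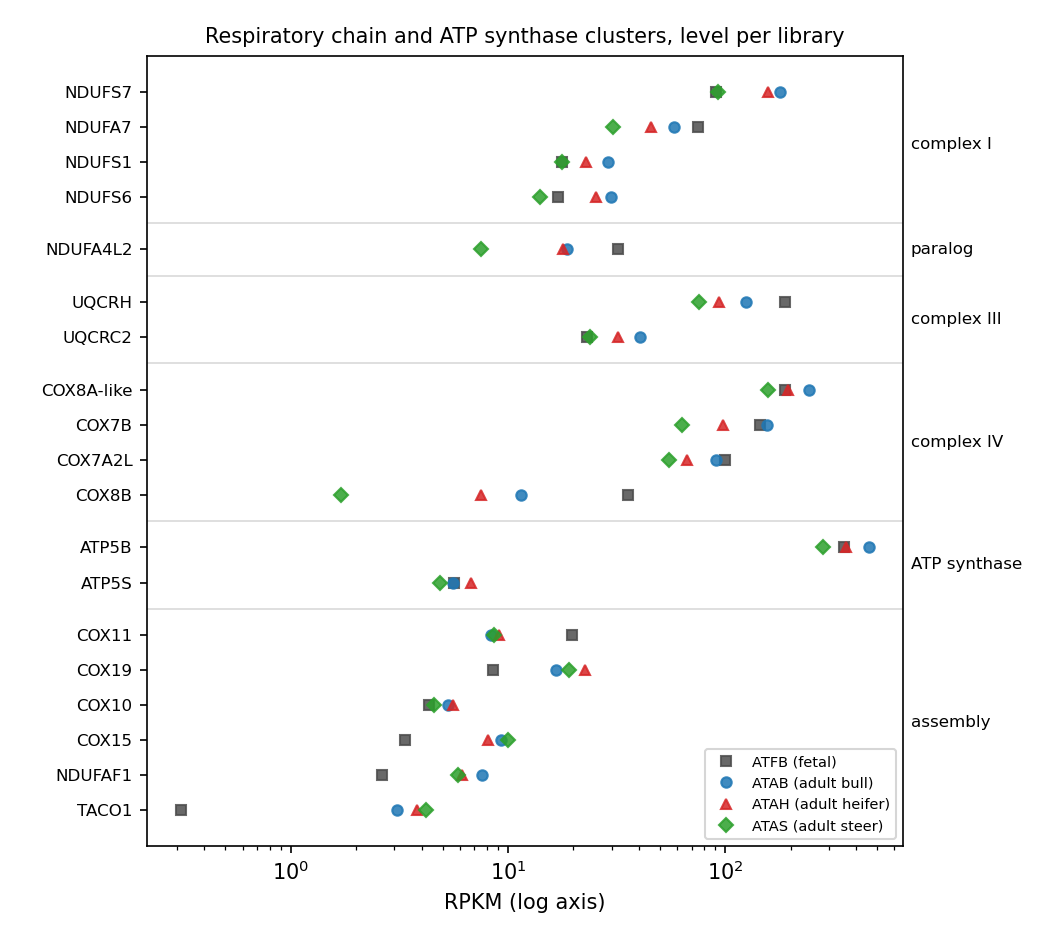
RPKM on a log axis for 19 members with at least 100 reads, grouped by complex, with 1 point per library and no error bars because each group had 1 library. The steer library (ATAS) lies at the left of the subunits in most lines, and COX8B and TACO1 have the widest spread of those plotted.

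ATP5B (Bt.4431), the catalytic beta subunit of ATP synthase, had the highest level of the members, with 351 RPKM in fetal fat, 456 in bulls, 360 in heifers and 281 in steers. It made up between 23.3% and 27.5% of the summed subunit RPKM in each library. ATP5S, coupling factor B, lay between 4.85 and 6.75 RPKM, and the 6 assembly factors lay between 0.314 and 22.5 RPKM. RPKM divides by the whole sequence of a cluster, and reads did not cover every sequence in full. NDUFA7 was covered over 28.0% to 38.8% of its 1695 bases and UQCRC2 over 49.4% to 56.3%, so their RPKM understates the level over the covered part.

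Between the fetal and the adult libraries, every member called higher in adult fat was an assembly factor when library totals were the scale. Of 6 assembly factors, 4 (NDUFAF1, COX15, COX19 and TACO1) were called higher in at least 2 of the 3 adult libraries and 1, COX11, was called lower in all 3. The subunit NDUFS7 was called higher in bulls too with TMM factors (log2 ratio 1.15) or DESeq2 size factors (1.12). COX8B was the only subunit called lower in all 3. When values were scaled to ACTB instead, the paralog NDUFA4L2 was also called lower in all 3. Of the 4 assembly factors, COX15 and TACO1 were then still called higher in all 3, COX19 in heifers alone and NDUFAF1 in bulls alone. A cluster was called between 2 libraries at a false discovery rate (FDR) of 0.001 or less in an exact two-sided binomial test of its reads, adjusted by Benjamini-Hochberg over all clusters with a read in either library, and with RPKM values that differed at least 2-fold, a log2 ratio of 1 in size. In ATAB, 3 of 21 members were called higher than in ATFB and 2 lower, where 9.51% and 13.1% of all 34096 clusters tested were called in these directions. In ATAH, 4 of 21 were higher and 3 lower, against 13.9% and 9.83% of all clusters. In ATAS, 4 of 21 were higher and 6 lower, against 15.5% and 10.5% of all clusters. These shares include clusters with fewer than 10 reads. Among clusters with 10 or more reads in 1 of the 2 libraries, 3281 of 24362 were called higher in ATAB and 4520 lower. In ATAH 4859 of 24996 were called higher and 3472 lower, and in ATAS 5429 of 24937 were called higher and 3713 lower. The counts of members called higher lie near the shares of all clusters and are no result about the members as a group. So do the counts called lower in bulls and heifers. These 3 comparisons share the ATFB library. With a coefficient of variation of 0.4 between libraries assumed in edgeR's exact test, COX8B in steers was the 1 member still called against ATFB.

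Over the 14 subunits and paralogs with at least 100 reads, the median log2 ratio to ATFB was 0.09 in bulls, -0.10 in heifers and -0.30 in steers. The first of these turned to -0.14 with ACTB as the scaling gene. Over the 6 assembly factors the median was 1.22, 1.25 and 1.16. The same median over all clusters with at least 100 reads was -0.11 in bulls, 0.15 in heifers and 0.18 in steers. Assembly factors held 2.58% as much summed RPKM as the subunits in fetal fat, 2.97% in bulls, 4.16% in heifers and 5.12% in steers. In bulk tissue, fewer cells of a type and less RNA per cell cannot be told apart. The 8 white adipocyte markers had a summed level of 1153 RPKM in ATFB and 9353 to 12979 RPKM in the adult libraries. The 2 erythroid markers with a cluster, HBG2 and ALAS2, summed to 2390 RPKM in ATFB and at most 1.54 in the adult libraries. The part of these differences in the ratios was not tested.

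**Figure D2:**
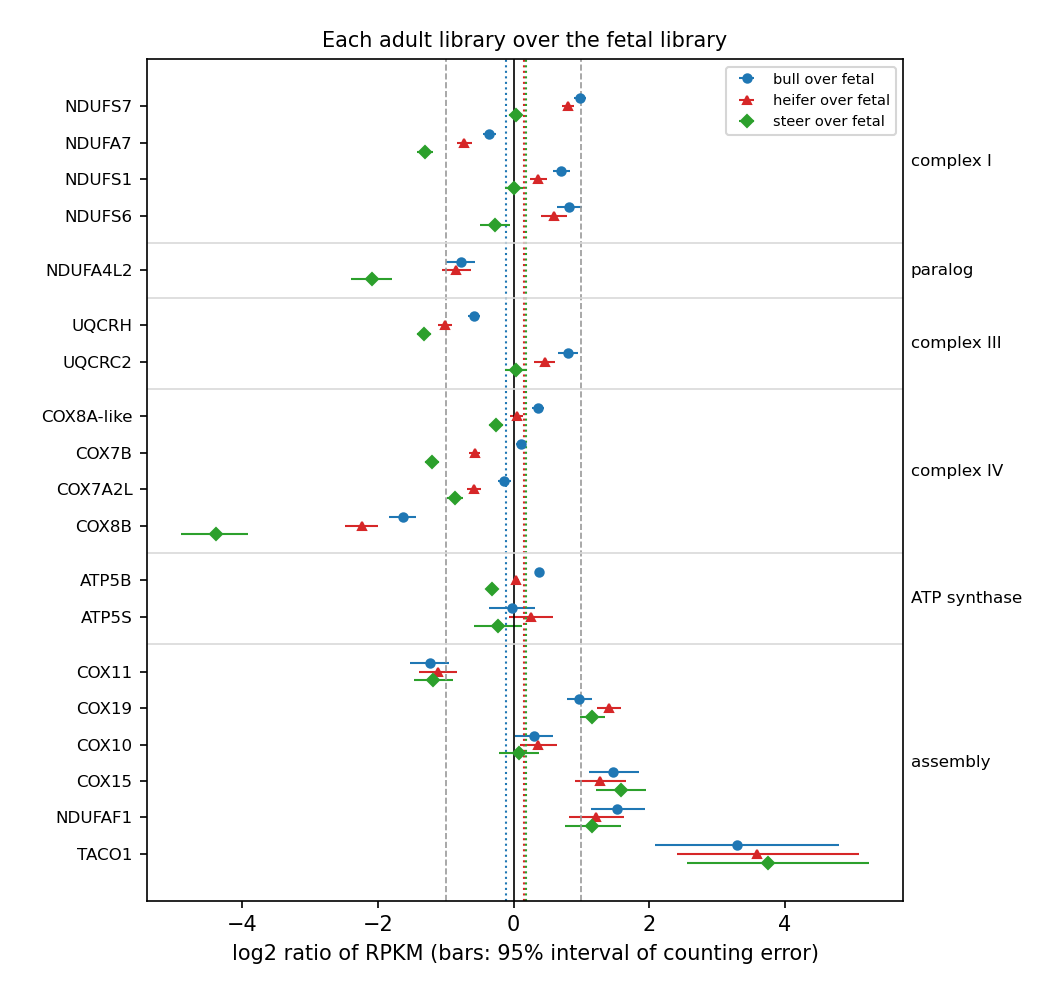
Log2 ratio of RPKM of each adult library over ATFB for 19 members, with 95% Clopper-Pearson intervals of counting error as bars, dashed lines at the call limit of 1 in size and dotted lines at the median of all clusters with at least 100 reads. COX8B lies farthest to the left and TACO1 farthest to the right in each of the 3 comparisons.

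In complex I, NDUFS7 and NDUFA7 stood at the ends of the range of adult to fetal ratios. NDUFS7 (Bt.315), the core subunit that carries the last iron-sulfur cluster before ubiquinone, had 90.6 RPKM in fetal fat, 178 in bulls, 158 in heifers and 92.6 in steers. Its level in bulls and heifers was thus well above that in fetuses and steers, which were close to each other. The log2 ratio to ATFB was 0.98 (95% interval 0.89 to 1.06) in ATAB, just under the call limit, and 0.03 (-0.06 to 0.13) in ATAS. NDUFA7 (Bt.20), an accessory subunit, had 74.8 RPKM in fetal fat and 58.2, 45.3 and 30.3 in bulls, heifers and steers. Every adult library was below the fetal one, and the log2 ratio of -1.31 (-1.43 to -1.19) in ATAS was called (binomial FDR 2.33e-111).

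NDUFS6 (Bt.56), an accessory subunit that binds zinc, had 16.9, 29.9, 25.5 and 13.99 RPKM in fetuses, bulls, heifers and steers. NDUFS1 (Bt.4777), the large iron-sulfur subunit, had 17.8, 28.9, 22.8 and 17.8 RPKM in that library order. Both had their highest levels in bulls, and neither was called against ATFB in any adult library. Part of the NDUFS6 sequence (344 windows of 90 bases of 1242) was shared with an unnamed cluster of the opposite strand that had 9 to 28 reads.

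NDUFA4L2 (Bt.76309) is a paralog of NDUFA4 known to respond to low oxygen. It had 32.0 RPKM in fetal fat, 18.6 in bulls, 17.8 in heifers and 7.50 in steers. The bull and heifer libraries were close to each other, and the steer library was far below both. In ATAS the log2 ratio to ATFB was -2.09 (-2.39 to -1.80), and with library totals as the scale this was the only adult library in which it was called against ATFB (FDR 5.67e-56, binomial test).

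The 2 members of complex III had ratios of opposite sign in bulls and heifers. UQCRH (Bt.27327), the hinge protein that contacts cytochrome c1, had 187 RPKM in fetal fat, 125 in bulls, 93.1 in heifers and 75.3 in steers. It was called lower in ATAH (log2 ratio -1.01, -1.11 to -0.91) and in ATAS (-1.32, -1.42 to -1.21), and had a log2 ratio of -0.58 in ATAB. UQCRC2 (Bt.27799), a core protein, had 23.2, 40.5, 31.9 and 23.8 RPKM in that library order, and its log2 ratios to ATFB of 0.80, 0.46 and 0.04 were not called. Of the 1553 windows of UQCRC2, 908 were shared with 4 other, unnamed clusters. Uniquely matched reads alone were counted, and whether a match was sought in the genome or in these cluster sequences is not clear from the sources used here, so its level is uncertain.

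In complex IV, COX8B fell from the fetal to every adult library, and COX8A-like was called in none. COX8B had 35.5 RPKM in fetal fat, 11.4 in bulls, 7.52 in heifers and 1.70 in steers, from 781, 266, 169 and 38 reads. The fetal library was the highest and the steer library the lowest, 20.9 times below it. The log2 ratio to ATFB was -1.63 (-1.84 to -1.43) in ATAB, -2.24 (-2.49 to -2.00) in ATAH and -4.39 (-4.90 to -3.92) in ATAS, where the FDR was 9.92e-183 in the binomial test. COX8A-like had 189, 242, 195 and 158 RPKM in that library order, with log2 ratios to ATFB of 0.36, 0.04 and -0.26. The ratio of 0.04 in heifers turned to between -0.23 and -0.06 with TMM, DESeq2 and ACTB scaling.

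Within each library, COX8B had 18.8% of the RPKM of COX8A-like in ATFB (95% Clopper-Pearson interval 17.2 to 20.4%). The share was 4.73% (4.15 to 5.37%) in ATAB, 3.86% (3.28 to 4.52%) in ATAH and 1.07% (0.757 to 1.48%) in ATAS. The ATAB and ATAH intervals overlapped, and those of ATFB and ATAS lay apart from the rest. This share does not depend on how the libraries are scaled to each other.

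**Figure D3:**
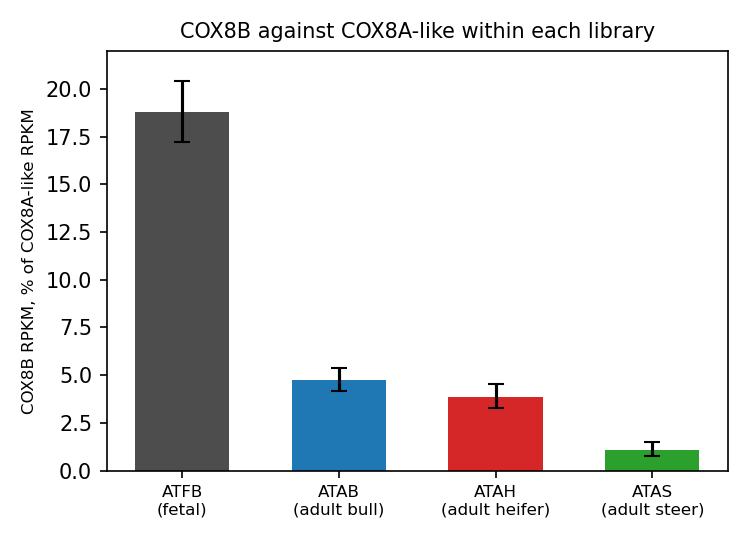
COX8B RPKM as a percentage of COX8A-like RPKM in each of the 4 libraries, as bars from 0 with 95% Clopper-Pearson intervals of counting error. The bar falls from 18.8% in the fetal library to 1.07% in the steer library.

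Some limits belong to COX8B. Its coding sequence takes up bases 61 to 273 of 1441, and bases 738 to 1230 overlap the opposite strand of PSMD13, a proteasome subunit, over 224 windows. The library is not stated to keep the strand, and without strand the reads of the 2 genes there cannot be told apart. PSMD13 had 1149, 1115, 972 and 933 reads in fetuses, bulls, heifers and steers, and reads covered between 52.5% and 62.4% of the COX8B sequence.

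COX8B is also known from skeletal muscle and brown fat, so markers of both were set beside it. Of 18 skeletal muscle markers 8 had a cluster, with a summed level of 31.4 RPKM in fetal fat, 67.7 in bulls, 58.9 in heifers and 59.4 in steers. Most of this was DES, desmin, with 26.6, 61.5, 48.2 and 52.5 RPKM, which is also made by smooth muscle. In ATAB, DES, CASQ1 and PYGM were called higher than in ATFB, while MYH2, a fast myosin heavy chain, and TTN, titin, were called lower, but TTN not with TMM factors (log2 ratio -0.83) and DES not with ACTB scaling (0.97). CASQ1 and PYGM were called higher in ATAH and ATAS as well. MYH2 had 18, 1, 10 and 40 reads in fetuses, bulls, heifers and steers, TTN had 156, 82, 179 and 142, and ACTA1, skeletal alpha actin, had 59, 28, 93 and 35. Between adult libraries these markers went both ways. MYH2 was called higher in ATAS than in ATAB and ATAH, while ACTA1 and PYGM were called lower in ATAS than in ATAH, and ACTA1 and TTN were called higher in ATAH than in ATAB, though TTN not with TMM factors (log2 ratio 0.90) or DESeq2 factors (0.89). The 2 cardiac or shared striated muscle markers with a cluster, TNNT2 and ACTC1, summed to 8.72, 6.02, 7.60 and 5.82 RPKM. With library totals they were called in no comparison, and with ACTB scaling ACTC1 was called lower in steers than in fetuses. UCP1, the defining protein of brown fat, had 0 reads in ATFB and ATAB, 2 in ATAH and 1 in ATAS. DIO2, which activates thyroid hormone in brown fat, had 0, 2, 0 and 0 reads. The 7 of 10 brown or beige markers with a cluster summed to 41.5, 173, 177 and 60.5 RPKM. Most of this was CIDEA, a lipid droplet protein, with 26.0, 159, 164 and 41.9 RPKM. CIDEA was called higher than in ATFB in bulls and heifers, and lower in ATAS than in ATAB and ATAH. FABP3, a fatty acid binding protein of heart and muscle on the same list, was called lower than in ATFB in all 3 adult libraries, as COX8B was, with 6.64, 2.96, 2.04 and 2.42 RPKM. In bulls its call was lost with TMM factors, at a log2 ratio of -0.99. CPT1B, the muscle form of the carnitine transferase, was called higher in all 3, with 0.873, 2.54, 4.24 and 5.06 RPKM. The part of these markers in the COX8B levels was not tested.

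COX7B (Bt.91777), a small subunit of complex IV, had 145 RPKM in fetal fat, 156 in bulls, 97.3 in heifers and 62.9 in steers. The bull library was close to the fetal one and the steer library was called lower than it, with a log2 ratio of -1.20 (-1.30 to -1.10). COX7A2L (Bt.49046), which joins complexes III and IV into supercomplexes, had 99.8, 90.7, 66.7 and 54.9 RPKM and was not called against ATFB, though in steers it passed the limit with DESeq2 size factors (log2 ratio -1.02) and ACTB scaling (-1.12). Of the 1092 windows of COX7A2L, 320 were shared with an unnamed cluster of the opposite strand. In ATP synthase, ATP5B had log2 ratios to ATFB of 0.38 in bulls, 0.04 in heifers and -0.32 in steers. The heifer ratio turned to between -0.24 and -0.06 with TMM, DESeq2 and ACTB scaling. For ATP5S (Bt.13666) the log2 ratios to ATFB were -0.02, 0.25 and -0.22, each with an interval that held 0.

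Other isoforms that differ between tissues were listed for this comparison and had no cluster under these descriptions. They were COX4I1, COX4I2, COX6A1, COX6A2, COX6B1, COX7A1, COX7A2, COX8A itself, NDUFA4, ATP5G1, ATP5G2, ATP5G3 and ATPIF1, and they were not analysed here.

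Among the assembly factors, TACO1 (Bt.112060) had the largest adult to fetal ratio of the members. TACO1 is needed to translate the mitochondrial mRNA of subunit 1 of complex IV. It had 6 reads in fetal fat against 62, 74 and 82 in bulls, heifers and steers, which are 0.314, 3.07, 3.79 and 4.21 RPKM. The 3 adult libraries were close together and all far above the fetal one, with log2 ratios of 3.29 (2.09 to 4.79), 3.59 (2.40 to 5.09) and 3.75 (2.56 to 5.23). The 6 fetal reads make these intervals wide. Of the 1163 windows of TACO1, 178 were shared with an unnamed cluster of the opposite strand.

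COX15 (Bt.26951), which makes heme A for complex IV, had 3.35 RPKM in fetal fat and 9.28, 8.11 and 10.03 in bulls, heifers and steers. COX10 (Bt.43087), the enzyme of the step before, had 4.31, 5.30, 5.56 and 4.55 RPKM and was not called in any comparison. The fetal library was the lowest for COX15. For COX10 the fetal and steer libraries were close, and their order turned with TMM, DESeq2 and ACTB scaling (log2 ratio of steers to fetuses between -0.18 and -0.04). NDUFAF1 (Bt.73254), an early factor in complex I assembly, had 2.63 RPKM in fetal fat and 7.60, 6.11 and 5.88 in bulls, heifers and steers. Its log2 ratios of 1.53, 1.22 and 1.16 were all called, and with ACTB scaling those in heifers and steers were 0.94 and 0.91 and were not.

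COX19 (Bt.64604) and COX11 (Bt.26976), both part of copper delivery to complex IV, were called in opposite directions. COX19 had 8.50 RPKM in fetal fat, 16.7 in bulls, 22.5 in heifers and 19.0 in steers, and its log2 ratio of 0.97 in ATAB missed the call limit. In steers it was called, and fell just under the limit with DESeq2 size factors. COX11 had 19.7 RPKM in fetal fat and 8.34, 9.11 and 8.66 in the adult libraries, with log2 ratios between -1.24 and -1.11. Of the 2559 windows of COX19, 1090 were shared with 2 unnamed clusters, so its level is uncertain in the same way.

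Taking the 3 adult libraries together against the fetal one gave a test that includes a spread between libraries. The adult libraries differ in sex and castration and gave the only such spread. The fetal side was 1 library, assumed to vary like the adult ones, so a difference between fetal and adult fat cannot be told apart from one particular to that library. By edgeR's quasi-likelihood test with Benjamini-Hochberg adjustment at an FDR of 0.05, 3 of 20 members were higher in the adult libraries and 1 was lower, where 9.83% and 8.39% of 25584 clusters were called in these directions. The 3 were TACO1 (log2 fold change 3.49 ± 0.52 SE, FDR 0.0127), COX15 (1.42 ± 0.34, FDR 0.0342) and COX19 (1.15 ± 0.28, FDR 0.0360), each higher in 3 of 3 adult libraries. With library totals in place of TMM factors COX19 did not pass (edgeR FDR 0.0587). COX11 was lower in 3 of 3 (-1.20 ± 0.26, FDR 0.0274 by edgeR). COX8B had the largest negative value, -2.32 ± 0.81, and did not pass (FDR 0.0900 by edgeR), with adult levels that ran from 1.70 to 11.4 RPKM. NDUFAF1 did not pass either, at 1.30 ± 0.40 (edgeR FDR 0.0660). Both passed in edgeR's likelihood ratio test, with FDR 0.0237 for COX8B and 0.0357 for NDUFAF1, and neither passed in the DESeq2 Wald test (adjusted p 0.269 and 0.0628) or in edgeR without a filter on low counts (FDR 0.0547 and 0.0590). Left out in turn, the adult libraries moved these counts to between 1 and 4 higher and between 0 and 5 lower. Without ATAH 1 member was higher and 0 were lower, and without ATAB 3 were higher and 5 lower.

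Among the adult libraries, the subunits were ordered from bulls over heifers to steers. In 13 of 14 subunits and paralogs with at least 100 reads, RPKM in ATAB was above ATAH and ATAH above ATAS, the exception being ATP5S. Among all 18671 clusters with at least 100 reads, 10.7% had this order. All 14 had a lower RPKM in ATAS than in both other adult libraries, and in 11 of 14 ATAS was the lowest of the 4 libraries, against 14.2% of all clusters. Of the 6 assembly factors, 1 followed the order, NDUFAF1.

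Few of these differences reached the call limit. Between ATAH and ATAB, 0 of 20 members were called, where 4.14% of 33887 clusters were higher in ATAH and 1.23% lower. Between ATAS and ATAB, 0 of 20 were higher and 4 were lower, against 6.86% and 1.87% of clusters. Between ATAS and ATAH, 0 of 20 were higher and 2 were lower, against 1.52% and 1.48%. Among clusters with 10 or more reads in 1 of the 2 libraries, 639 of 23754 were lower in ATAS than in ATAB. For ATAS against ATAH 524 of 24112 were lower. The median log2 ratio of the 14 subunits and paralogs was -0.34 for ATAH over ATAB, -0.75 for ATAS over ATAB and -0.45 for ATAS over ATAH. Over all clusters with at least 100 reads it was 0.27, 0.33 and 0.06, above the median of the subunits in each pair. The 6 assembly factors had medians of 0.10, 0.08 and -0.06, of which the first and the second turned to -0.18 and -0.21 with TMM factors.

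**Figure D4:**
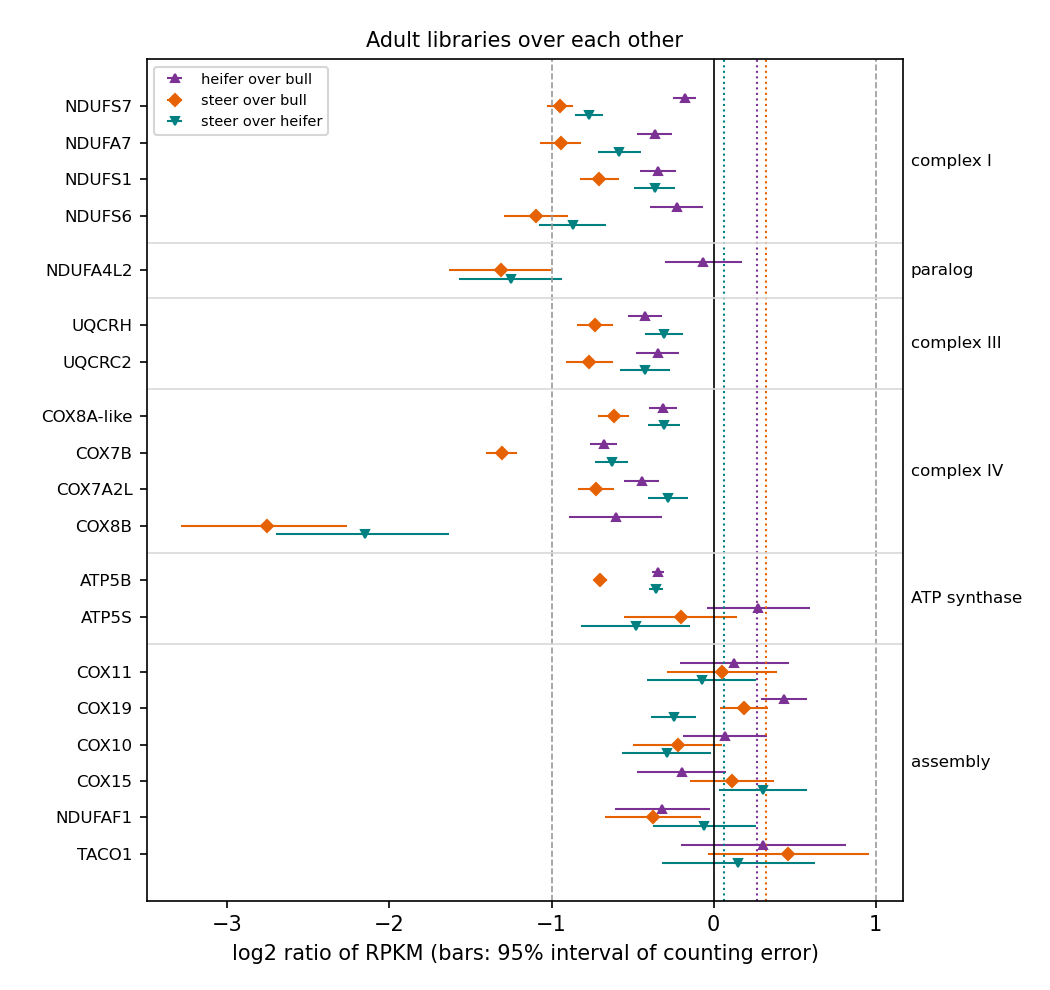
Log2 ratio of RPKM between adult libraries for 19 members, with 95% Clopper-Pearson intervals of counting error as bars, dashed lines at the call limit of 1 in size and dotted lines at the median of all clusters with at least 100 reads. The subunits lie left of 0 in nearly all comparisons, and COX8B lies farthest to the left at -2.75 for steers over bulls.

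The scaling of the bull library bears on the size of these ratios. Scaled by edgeR's TMM factors in place of library totals, 9 of 20 members were called lower in ATAS than in ATAB, against 3.45% of all clusters at that scaling, the median of the subunits was -1.04, and that of all clusters was 0.03. The members called then were COX8B, NDUFA4L2, COX7B and NDUFS6, as above, with NDUFS7, NDUFA7, UQCRC2, UQCRH and COX7A2L in addition. TMM factors were 0.878 for ATAB and between 0.993 and 1.08 for the others. With TMM all 14 subunits and 3 of 6 assembly factors followed the order from bulls over heifers to steers, as did 21% of all clusters with at least 100 reads. ATP5S did so by a log2 ratio of -0.00083 for ATAH over ATAB, far within its counting error.

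COX8B had a log2 ratio of -2.75 (-3.28 to -2.26) for ATAS over ATAB and -2.15 (-2.70 to -1.64) for ATAS over ATAH. NDUFA4L2 followed with -1.31 and -1.25 (-1.57 to -0.93), and these were the only members called in both comparisons. COX7B was called in ATAS over ATAB at -1.31 (-1.40 to -1.21), and NDUFS6 at -1.10 (-1.30 to -0.90). The FDR of these calls in the binomial test was at most 5.86e-15. NDUFS7 and NDUFA7 came next for ATAS over ATAB, at -0.95 and -0.94.

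The members of complex III summed to 165 RPKM in bulls, 125 in heifers and 99.1 in steers, those of complex IV to 499, 366 and 277, and ATP synthase to 462, 367 and 286. The assembly factors summed to 50.3, 55.2 and 52.3 RPKM. With TMM factors these sums were 57.2, 51.9 and 48.5, which is also an order from bulls over heifers to steers. These sums are led by the members with the highest levels.

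Markers of other cells also differed among the adult libraries. The 3 leukocyte markers CD74, CD68 and PTPRC had a summed level of 703 RPKM in bulls, 972 in heifers and 1789 in steers, against 244 in ATFB. White adipocyte markers summed to 12954, 12979 and 9353 RPKM in bulls, heifers and steers, and the members of this list did not move as one. SCD, a fatty acid desaturase, had 5557, 5493 and 2544 RPKM, and DGAT2, which makes triglyceride, had 3224, 2367 and 1296 RPKM. Both were called lower in ATAS than in ATAB, and SCD in ATAS than in ATAH too. LEP (128, 118 and 74.8 RPKM) and LPL (566, 507 and 304 RPKM) were also at their lowest in steers and were not called between adult libraries, though with TMM factors both were called lower in ATAS than in ATAB (log2 ratios -1.08 and -1.19). LIPE, the hormone-sensitive lipase, had 505, 767 and 1024 RPKM and was called higher in ATAS than in ATAB, though not with TMM factors (log2 ratio 0.72). ADIPOQ (982, 1150 and 1498 RPKM) and PLIN1 (520, 834 and 1005 RPKM) had their highest values in steers, CIDEC had 1470, 1743 and 1607 RPKM, and none of the 3 was called between adult libraries. The 4 fibroblast and preadipocyte markers summed to 6368, 1441 and 1753 RPKM, of which the collagens COL1A1 and COL3A1 were called lower in ATAH and ATAS than in ATAB. DLK1 of the same list had 11580 reads in fetal fat and 0, 40 and 19 in bulls, heifers and steers. The endothelial markers PECAM1 and VWF summed to 192, 258 and 333 RPKM, and VWF was called higher than in ATFB in each adult library. The part of these markers in the order of the subunits was not tested.

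Complex II and other proteins that pass electrons toward ubiquinone were counted apart from the 21 members. Of such genes 6 had a cluster, SDHA, SDHD, ETFA, ETFDH, DHODH and GPD2. With library totals 2 of the 6, ETFDH and GPD2, were called higher than in ATFB in each adult library and 0 lower. Of all clusters 9.51%, 13.9% and 15.5% were called higher in bulls, heifers and steers. With 6 genes the count is too small to be read as a difference from these shares. With ACTB scaling DHODH was called lower in heifers than in fetuses. ETFDH, which passes electrons from fatty acid oxidation to ubiquinone, had 9.88 RPKM in fetal fat and 45.9, 31.6 and 27.6 in bulls, heifers and steers. GPD2, the mitochondrial glycerol phosphate dehydrogenase, had 1.48, 3.01, 2.97 and 3.85 RPKM. Both had their lowest level in the fetal library. The GPD2 calls in bulls and heifers depend on the scaling, with log2 ratios of 0.91 in heifers by TMM factors and 0.79 and 0.73 in bulls and heifers by ACTB, none of them called. With TMM or DESeq2 factors ETFA was called higher in bulls than in fetuses, and SDHD, ETFA and ETFDH were called lower in ATAS than in ATAB. Of 9 genes of ubiquinone synthesis, 1 was called higher than in ATFB in each adult library, COQ4 in ATAB and PDSS2 in ATAH and ATAS, which is near the 9.51%, 13.9% and 15.5% of all clusters called higher. With ACTB scaling neither PDSS2 call was made (log2 ratios 0.90 and 0.96). COQ4 was also called lower in ATAH than in ATAB.

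For export and uncoupling, 6 genes had a cluster, and against ATFB every adult library had SLC25A6 called lower and UCP2 called higher. SLC25A6, an ADP/ATP carrier, had 998 RPKM in fetal fat and 460, 359 and 403 in bulls, heifers and steers. UCP2 had 59.0, 142, 136 and 149 RPKM. TMM and DESeq2 scaling left SLC25A6 uncalled in bulls, at log2 ratios of -0.94 and -0.97, and ACTB scaling left UCP2 uncalled in heifers, at 0.93. VDAC2 was called lower in steers than in fetuses under each of these 3 scalings, and not with library totals. By the edgeR test UCP2 (FDR 0.0457) and ETFDH (FDR 0.0473) passed, and SLC25A6 did not (FDR 0.0575). With library totals no export or uncoupling gene was called between adult libraries, and with TMM or DESeq2 factors SLC25A3 was called lower in ATAS than in ATAB.

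Of 8 further assembly genes outside the members, 0 were called between an adult library and ATFB, where between 9.51% and 15.5% of all clusters were called in each direction. With 8 genes this count is too small to be read as a difference from that share, and with TMM or DESeq2 factors 1 of the 8, BCS1L, was called higher in bulls, while with ACTB scaling SCO2 was called lower in bulls and heifers. BCS1L, which inserts the iron-sulfur protein into complex III, was called lower in ATAS than in ATAB, with 6.39 RPKM in fetal fat and 11.8, 9.73 and 5.88 in bulls, heifers and steers. The median log2 ratio of these 8 genes to ATFB was 0.15, 0.13 and -0.13.

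Regulators of mitochondrial genes, 17 with a cluster, had median log2 ratios of 0.38 for ATAH over ATAB, 0.59 for ATAS over ATAB and 0.02 for ATAS over ATAH, beside 0.27, 0.33 and 0.06 over all clusters with at least 100 reads. With TMM factors the first and the second were 0.11 and 0.30, beside -0.01 and 0.03. Of the 17, 1 was called higher and 1 lower in ATAB than in ATFB, 3 higher in ATAH and 4 higher in ATAS, with 0 lower in the latter pair of comparisons. The share of all clusters called higher was 9.51%, 13.9% and 15.5%, so these counts lie near the background and are no result about the regulators as a group. SIRT3, a mitochondrial deacetylase, had 5.66 RPKM in fetal fat, 8.93 in bulls, 16.7 in heifers and 15.9 in steers and was called in ATAH and ATAS. POLRMT, the mitochondrial RNA polymerase, had 2.87, 5.22, 6.59 and 7.45 RPKM, and was called in the same libraries, as was GABPA, a factor that binds promoters of subunit genes (5.81, 9.56, 12.8 and 12.8 RPKM). PPRC1, a coactivator, had 5.89, 6.91, 10.6 and 12.7 RPKM and was called in steers, at a log2 ratio of 1.11 that TMM factors moved to 0.99. GABPB1, the partner of GABPA, had 7.58, 3.56, 5.17 and 5.99 RPKM and was called lower in bulls, though with TMM factors its log2 ratio of -0.91 was not called. PRKAA2, a catalytic subunit of AMP kinase, was called higher in bulls than in fetal fat, with 60 reads against 24. Several of these calls depend on the scaling. With ACTB scaling POLRMT in heifers (log2 ratio 0.93), GABPA in heifers and steers (0.87 and 0.88), PPRC1 in steers (0.86) and PRKAA2 in bulls (binomial FDR 0.00902) were not called, nor was GABPA in steers with DESeq2 factors (0.98). POLRMT in bulls was called with TMM factors (1.04) and with DESeq2 factors.

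PPARGC1A, a coactivator of mitochondrial biogenesis, was the 1 regulator called between adult libraries. It had 1.41 RPKM in fetal fat, 1.07 in bulls, 1.34 in heifers and 2.26 in steers, and was higher in ATAS than in ATAB with a log2 ratio of 1.08 (0.74 to 1.42). With TMM factors this ratio was 0.79 and was not called. The steer library thus held the highest PPARGC1A level and the lowest subunit levels of the adult libraries, which is a description of 3 libraries.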

How the data were processed

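RNA of back fat from 4 groups of Qinchuan cattle was measured, as 1 pooled library of 5 animals per group. The authors cleaned the Illumina reads (CASAVA is named in the submitters' processing notes), aligned them with SOAPaligner and counted uniquely matched reads per UniGene cluster, and the read counts were deposited without normalization. The deposited RPKM were computed by the authors from these counts, and the deposited percent coverage is the share of each sequence under reads. The study names the bosTau7 genome as reference, while the tables list UniGene sequences, so no coordinates are given here. Versions and strand setting are not given in the sources used here.

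Depth was 15.3 M to 16.1 M counted reads per library, which fixes the counting intervals, and intervals cover counting error alone. Members were found by their descriptions, and symbols of members and lists came from those descriptions. The members and lists were chosen with earlier results of these data known. Named members were, by complex, the 2 with the largest and the 2 with the smallest ratio of mean adult to fetal RPKM, all members called between adult libraries, and all isoform pairs listed. List genes were named where called or at 0 reads, and other members were named for completeness. Values of 1 member are not reported here, though it is held in the counts.

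Pairs of libraries were compared by exact two-sided binomial tests (SciPy 1.17.1), with Benjamini-Hochberg adjustment over all clusters with a read in the pair, an FDR limit of 0.001 and a log2 limit of 1. Ratios carry 95% Clopper-Pearson intervals, and the shares of reads on the members carry 95% Wilson intervals. Adult against fetal libraries were fitted with edgeR 4.0.16 (glmQLFit, TMM, filterByExpr, FDR limit 0.05), with SE taken from the F statistic. Both tests were tested on simulated data. Alternatives were TMM, DESeq2 1.42.0 and ACTB scaling, a filter of 10 reads, an assumed coefficient of variation of 0.4, 1 cluster per gene, and for edgeR no TMM, no filter, the likelihood ratio test, the DESeq2 Wald test and each adult library left out. Sequence shared with other clusters was sought in windows of 90 bases, leaving out windows with 60 or more A or T. COX8 coding sequences were aligned with Biopython 1.88. Promoters and proteins were not analysed here.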

Additional observations from a re-analysis of the deposited data

How the results depend on the processing

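Between ATAB and ATFB, 3 members were called higher, and 5 with TMM factors or DESeq2 size factors, which added COX19 and NDUFS7. Between ATAS and ATAB, 4 members were called lower, and 9 with TMM and 11 with DESeq2 factors. The share of all calls between these libraries that were higher in ATAS moved from 78.6% to 49.2% with TMM. With ACTB as the scaling gene, 2 members in place of 4 were higher in ATAS than in ATFB (COX15 and TACO1), and the median log2 ratio of 20 members in ATAH over ATFB turned from 0.15 to -0.12. NDUFAF1 was then called in ATAB alone. With an assumed coefficient of variation of 0.4, edgeR's exact test called 0 members in either direction in ATAB and in ATAH against ATFB, 0 higher and 1 lower (COX8B) in ATAS against ATFB, 0 lower in ATAS against ATAB and 0 lower in ATAS against ATAH. A read filter or 1 cluster per gene moved no count of called members. In the edgeR test of 3 adult libraries against ATFB, the likelihood ratio test gave 4 higher members in place of 3, adding NDUFAF1, and 2 lower in place of 1, adding COX8B. Library totals without TMM gave 2 higher in place of 3, without COX19. Leaving out each adult library gave 1 to 4 higher and 0 to 5 lower, with 1 and 0 without ATAH and 3 and 5 without ATAB. The causes were not tested. No paired analysis was possible because each group had 1 library and the labels carry no replicate numbers. With 6 fetal reads of TACO1 and 38 steer reads of COX8B, depth limits how closely their ratios are known.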
